A study of Mus musculus with 6 samples.

Results

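A set of 10 genes that make, move or degrade prostaglandins was followed library by library in epididymal white adipose tissue (eWAT): *Pla2g4a*, *Ptgs1*, *Ptgs2*, *Ptges*, *Ptgds*, *Ptgis*, *Akr1b7*, *Akr1b3*, *Slco2a1* and *Hpgd*. They were looked up by symbol among the 28529 genes of the deposited count table, and all 10 were found and passed the filter on low counts, which kept 16101 genes. The list was drawn up with values of these same libraries known, *Ptgs2* and *Akr1b7* above all, so the genotype differences of the 10 genes are given as a description. No p is printed for any of them, and the counts of calls given below from fits over all genes are no independent evidence of their direction. eWAT is a fat depot of male mice and lies beside the epididymis.

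RNA was sequenced from 3 Maf1 KO mice (libraries KO1, KO2 and KO3) and 3 wild-type mice (WT1, WT2 and WT3), with 1 library per mouse and separate animals in each group. Maf1 represses transcription by RNA polymerase III, and the knockout is carried by the whole animal rather than by 1 cell type. All 6 mice were males of strain C57BL/6 (C57Bl/6J in the study's methods) aged 22 to 24 weeks that ate breeder chow freely and were fasted overnight before the tissue was frozen. The series asks how loss of Maf1 alters the RNA of this tissue.

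Prostaglandins are short-lived lipid signals made from arachidonic acid. A phospholipase frees the acid from membranes, the cyclooxygenases Ptgs1 and Ptgs2 turn it into prostaglandin H2, and terminal synthases make the separate prostaglandins, which are taken up again and oxidised to inactive products. In adipose tissue they are known to restrain lipolysis and to influence the formation of adipocytes, and in the male tract they are made in quantity by the accessory glands and ducts.

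Where the values of 3 libraries are listed, they run in the order of the library numbers. The depth was 12247202, 7207476 and 13088316 counts in Maf1 KO libraries, and 12010807, 15971900 and 12605990 counts in WT libraries. Levels are given as CPM, the counts of a gene scaled to a fixed library size, with the trimmed mean of M values (TMM) used to adjust that size. *Maf1* itself measured 13.5, 11.6 and 22.1 CPM in Maf1 KO libraries, against 56.8, 66.7 and 66.4 CPM in WT libraries, lower in every Maf1 KO library than in any WT library. The knockout is described as lacking the coding region, but the counts cover the whole gene, so they do not show from which part the remaining 150, 87 and 300 counts of KO1, KO2 and KO3 come. The 8 adipocyte markers summed to between 15023 and 23999 CPM in Maf1 KO libraries and between 20739 and 23121 CPM in WT libraries, led by *Fabp4*, which carries fatty acids in adipocytes. KO1 and KO2 stood apart from the other libraries in smooth muscle genes, and KO1 and WT1 in epididymis genes. Values of both kinds are given beside the results they move with.

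The promoters of *Akr1b7*, *Ptgs2* and *Slco2a1* are shown because these genes were high together in KO1 and KO2. Each run holds 300 bases around the start site in RefSeq (GRCm38.p6), read 5′ to 3′ on the plus strand, and each had 1 exact match in the mm9 genome that the counts use. The match for *Akr1b7* lay at chr6:34362112-34362411, that for *Ptgs2* at chr1:151946911-151947210 and that for *Slco2a1* at chr9:102910567-102910866. Capitals mark 1 motif in each.
Akr1b7: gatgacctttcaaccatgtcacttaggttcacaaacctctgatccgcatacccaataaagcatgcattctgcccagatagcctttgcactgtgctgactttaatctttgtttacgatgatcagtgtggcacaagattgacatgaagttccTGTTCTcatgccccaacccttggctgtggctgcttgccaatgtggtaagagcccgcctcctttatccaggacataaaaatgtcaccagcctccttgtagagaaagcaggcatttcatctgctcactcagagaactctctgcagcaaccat
Ptgs2: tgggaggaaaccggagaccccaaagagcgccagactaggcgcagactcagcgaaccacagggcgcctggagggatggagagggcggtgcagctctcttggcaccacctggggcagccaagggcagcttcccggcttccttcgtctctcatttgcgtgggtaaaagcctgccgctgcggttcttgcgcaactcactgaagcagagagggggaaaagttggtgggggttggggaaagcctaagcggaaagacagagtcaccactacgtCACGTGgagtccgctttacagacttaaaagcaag
Slco2a1: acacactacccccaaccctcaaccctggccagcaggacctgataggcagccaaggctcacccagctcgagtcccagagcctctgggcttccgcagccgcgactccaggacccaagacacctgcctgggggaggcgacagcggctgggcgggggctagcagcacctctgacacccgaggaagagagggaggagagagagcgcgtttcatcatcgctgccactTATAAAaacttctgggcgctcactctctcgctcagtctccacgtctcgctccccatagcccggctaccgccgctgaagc
The capitals in *Akr1b7* spell TGTTCT, the half-site letters bound by androgen and glucocorticoid receptors, and begin 72 bases before the annotated mm9 start of the gene. In *Ptgs2* they spell CACGTG, an E-box, 77 bases before the annotated start. In *Slco2a1* they spell TATAAA, the core of a TATA box, 29 bases before it. Searched on both strands, TGTTCT was found in 19.0% of 32851 RefSeq promoters of this length, CACGTG in 7.15% and TATAAA in 13.6%. Among the 8 of the 10 genes with a promoter in the table, 4, 1 and 3 held these letters, and no run shown holds more than 1 of the 3 motifs. A match describes the sequence and does not show that a factor binds there.

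Release of arachidonic acid is the first step. *Pla2g4a* (chr1:151676748-151808420, minus strand), the cytosolic phospholipase that prefers arachidonate-bearing lipids, measured 35.1, 67.0 and 19.1 CPM in Maf1 KO libraries, against 24.1, 21.8 and 25.3 CPM in WT libraries. KO1 and KO2 lay above every WT library and KO3 below every one, so the groups overlapped. The means were 40.4 ± 24.4 CPM in Maf1 KO and 23.7 ± 1.79 CPM in WT eWAT (SD, n = 3 each), and the log2 fold change, 0.76 with a standard error of 0.43, was 0.19 without KO2. In whole tissue, fewer cells of a type and less RNA per cell cannot be told apart, and this holds for every level below.

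The cyclooxygenases differed from each other in their pattern. *Ptgs1* (chr2:36085946-36107792, plus strand), the form present in most tissues at rest, measured 70.5, 154 and 97.6 CPM in Maf1 KO libraries, against 31.3, 69.4 and 69.2 CPM in WT libraries. It was the only one of the 10 genes whose groups did not overlap, although KO1 lay close above WT2 and WT3. Across all genes tested, 2.9% had every Maf1 KO library above every WT library and 3.37% every one below; since the genes were chosen on this contrast, nothing is read from that comparison. The log2 fold change of *Ptgs1* was 0.92 with a standard error of 0.41, and it was 0.57 without KO2 and 0.63 without WT1.

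*Ptgs2* (chr1:151947254-151955140, plus strand), the form induced by growth factors and inflammatory signals, had 4892, 5433 and 45 counts in Maf1 KO libraries, against 98, 96 and 76 counts in WT libraries. As levels these are 442, 725 and 3.32 CPM in the Maf1 KO libraries and 8.50, 5.72 and 5.92 CPM in the WT libraries. The gene was thus high in KO1 and KO2 and lowest of all 6 libraries in KO3. Against the WT mean of 6.71 ± 1.55 CPM (SD, n = 3), KO1 was 65.8-fold and KO2 108-fold as high, and KO3 stood at 0.495 of it. By counts *Ptgs2* ranked 226, 102 and 12829 among all genes in Maf1 KO libraries, against 10084, 12151 and 11533 in WT libraries.

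The mean of *Ptgs2* in Maf1 KO eWAT, 390.2 CPM, therefore carried an SD of 364 CPM (n = 3). The fitted log2 fold change was 5.86 with a standard error of 1.62, and it was 5.05 without KO2 and 4.72 when the replicate number was fitted as a block. Without both KO1 and KO2, a setting added after the values were seen, it was -1.01, with the lone Maf1 KO library assumed to vary like the WT libraries. Per kilobase of exon, *Ptgs2* stood at 5.87 and 4.42 times the level of *Ptgs1* in KO1 and KO2 and at 0.0319 of it in KO3, against 0.254, 0.0773 and 0.0802 in WT libraries. *Ptgs2* and *Pla2g4a* lie 139 kb apart on chromosome 1.

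**Figure D1:**
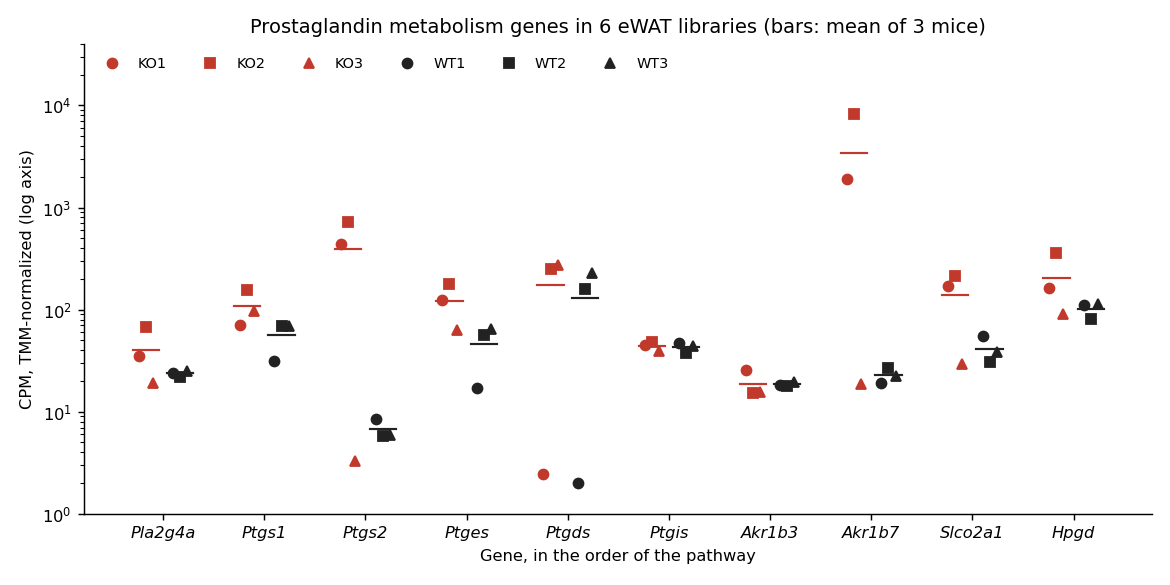
Level of each of the 10 genes in every library, in TMM-normalized CPM on a log axis, with Maf1 KO libraries in red to the left, WT libraries in black to the right, 1 marker shape per replicate number and a bar at the mean of 3 mice. *Akr1b7* and *Ptgs2* were high in KO1 and KO2 alone, while *Ptgds* was low in both libraries numbered 1.

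The terminal synthases did not share a pattern. *Ptges* (chr2:30744991-30785383, minus strand), the inducible synthase of prostaglandin E2, measured 124, 178 and 63.7 CPM in Maf1 KO libraries, against 17.2, 56.3 and 64.0 CPM in WT libraries. KO1 and KO2 were the highest libraries, KO3 lay among the WT values, and WT1 was far below the rest. The log2 fold change was 1.41 with a standard error of 0.57, 1.01 without WT1 and 0.48 without KO1 and KO2. The small gene *Gm13400* lies inside *Ptges* on the same strand and had at most 20 counts in any library.

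*Ptgds* (chr2:25322229-25325566, minus strand) encodes the lipocalin-type prostaglandin D2 synthase, a secreted protein that is abundant in the epididymis. It had 27, 1887 and 3696 counts in Maf1 KO libraries, against 23, 2671 and 2958 counts in WT libraries, which are 2.44, 252 and 273 CPM in Maf1 KO and 1.99, 159 and 230.4 CPM in WT libraries. KO1 and WT1 were thus both near the bottom, the other 4 libraries were high, and the highest stood 137 times above the lowest. The means, 176 ± 150.4 CPM in Maf1 KO and 130.5 ± 117 CPM in WT eWAT (SD, n = 3 each), differed by far less than the spread within either group. The log2 fold change of 0.43 had a standard error of 1.68 and turned to -0.15 without WT1.

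The genes whose levels ran closest to *Ptgds* over the 6 libraries, by the root mean square difference of centred log2 CPM, were *Defb26* (0.14), *Atp13a4* (0.192), *Crisp4* (0.277), *Akr1c19* (0.278) and *Slc46a2* (0.325). *Defb26*, a beta-defensin gene, had 0, 408 and 734 counts in Maf1 KO libraries, against 0, 440 and 597 counts in WT libraries. The 9 epididymis markers summed to 793, 5281 and 7318 CPM in Maf1 KO libraries, against 15.5, 5514 and 3691 CPM in WT libraries. Of these markers 6, 1 and 1 were at 0 in Maf1 KO libraries, against 3, 1 and 0 in WT libraries, and nearly the whole sum of KO1 came from *Crisp1*, a secreted protein that coats sperm, at 793 CPM. The 8 testis germ cell markers, led by the sperm protamine gene *Prm2*, summed to 0.723, 189 and 103 CPM in Maf1 KO libraries, against 7.02, 859.5 and 112 CPM in WT libraries. Both sums were lowest in KO1 and WT1, as *Ptgds* was, and their part in its level was not tested.

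*Ptgis* (chr2:167017305-167066104, minus strand), the prostacyclin synthase found in vessel walls, was the steadiest of the 10 genes. It measured 45.0, 48.3 and 39.3 CPM in Maf1 KO libraries, against 47.5, 37.5 and 44.1 CPM in WT libraries. The groups overlapped throughout, the highest library stood at 1.29 times the lowest, and the log2 fold change was 0.039 with a standard error of 0.17. A gene on the opposite strand, *1110018N20Rik*, overlaps its end and had 11 to 33 counts per library.

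Among the aldo-keto reductases, *Akr1b7* (chr6:34362334-34373142, plus strand) held the widest range of any of the 10 genes within the Maf1 KO group. It was first described as the major protein of the mouse vas deferens, where androgens maintain it, and its enzyme can make prostaglandin F2α. There were 21161, 62001 and 255 counts in Maf1 KO libraries, against 222, 450 and 289 counts in WT libraries. The levels were 1911, 8279 and 18.8 CPM in the Maf1 KO libraries and 19.2, 26.8 and 22.5 CPM in the WT libraries. KO1 and KO2 were high, and KO3 lay below the lowest WT library by a margin within the spread of the WT group.

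Against the WT mean of 22.9 ± 3.79 CPM (SD, n = 3), *Akr1b7* was 83.6-fold as high in KO1 and 362-fold in KO2, while KO3 stood at 0.823 of it. The transcript took 0.173% of all counts in KO1 (95% Wilson interval 0.17% to 0.175%) and 0.86% in KO2 (0.854% to 0.867%), where it ranked 9 among all genes. Its share was 0.00195% in KO3, against 0.00185%, 0.00282% and 0.00229% in WT libraries. These intervals cover counting error only, since reads copied by PCR are not independent molecules. KO2 exceeded KO1 by 4.33-fold, a wider gap than the 1.64-fold of *Ptgs2* between the same libraries.

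The fitted log2 fold change of *Akr1b7* was 7.22 with a standard error of 1.91. It was 5.40 without KO2, 7.79 without KO3, 5.79 when the replicate number was fitted as a block, and -0.27 without both KO1 and KO2. Of the 1246 stretches of 36 bases in its longest transcript, 60 also occur in transcripts of its relatives. These were 59 shared with *Akr1b10*, 25 with *Akr1b8* and 0 with *Akr1b3*, some of them with more than 1 relative. Only uniquely mapped reads were counted, so a read lying wholly in shared sequence would have been left out. A read longer than 36 bases may reach beyond such a stretch, so the loss of reads was not measured. *Gm13857*, on the opposite strand, overlaps the gene and had at most 11 counts in any library, and *Gm14546*, opposite *Akr1b3*, had at most 1. The library kit kept strand, but the strand setting of the counting is not given in the sources used here, so reads from such overlaps are uncertain.

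*Akr1b3* (chr6:34253934-34267497, minus strand), the aldose reductase that is expressed widely and also reduces prostaglandin H2, lies 94.8 kb from *Akr1b7*. It measured 25.8, 15.1 and 15.7 CPM in Maf1 KO libraries, against 18.1, 18.0 and 19.7 CPM in WT libraries. KO1 was the highest library and KO2 and KO3 the lowest, so the groups overlapped, and the log2 fold change was 0.02 with a standard error of 0.26. The closer neighbours of *Akr1b7* are *Akr1b10* at 15.4 kb and *Akr1b8* at 43.9 kb. *Akr1b10* measured 32.8, 32.0 and 17.6 CPM in Maf1 KO libraries, against 13.5, 18.4 and 16.6 CPM in WT libraries, so that KO1 and KO2 were again highest, though by far less than in *Akr1b7*. For *Akr1b8* the log2 fold change was 0.12 with a standard error of 0.27. Per kilobase of exon, *Akr1b7* stood at 227, 1685 and 3.68 times the level of *Akr1b3* in Maf1 KO libraries, against 3.26, 4.56 and 3.51 times in WT libraries.

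Uptake and breakdown followed the same libraries with smaller ranges. *Slco2a1* (chr9:102910817-102990179, plus strand), the prostaglandin transporter that carries the lipids into cells, measured 171, 214 and 29.2 CPM in Maf1 KO libraries, against 54.6, 30.7 and 38.1 CPM in WT libraries. KO1 and KO2 lay above every other library and KO3 below all of them. Its log2 fold change was 1.75 with a standard error of 0.68, and -0.49 without KO1 and KO2. *Hpgd* (chr8:58773349-58799843, plus strand), the dehydrogenase that begins the inactivation of prostaglandins, measured 164, 361 and 90.7 CPM in Maf1 KO libraries, against 112, 81.6 and 113 CPM in WT libraries. KO2 stood highest, KO1 lay above every WT library and KO3 lay among them. The log2 fold change of *Hpgd* was 1.01 with a standard error of 0.49, and 0.32 without KO2.

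Smooth muscle genes were high in the same libraries as *Ptgs2*, *Akr1b7* and *Slco2a1*. The 8 smooth muscle markers summed to 3002, 6350 and 725 CPM in Maf1 KO libraries, against 923, 690.1 and 857 CPM in WT libraries, and all 8 were higher in KO1 and in KO2 than in each of the other 4 libraries. *Myh11*, the myosin heavy chain of smooth muscle, led the list with 931, 1954 and 140.3 CPM in Maf1 KO libraries, against 186, 168 and 163 CPM in WT libraries. Nothing in this list was at 0 in any library.

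The 8 markers listed for vas deferens and seminal vesicle, the muscular duct and the gland near this depot, are mostly genes of seminal vesicle secretion. Their sum therefore bears on the gland and hardly on the duct. They summed to 29.1, 12.2 and 2.21 CPM in Maf1 KO libraries, against 0, 1.85 and 2.10 CPM in WT libraries. Each of the 8 had its highest level in KO1 or KO2, but only 4 of the 8 lay above all other libraries in both. These 4, *Svs4*, *Svs5*, *Svs6* and *Spink3*, had only 28, 3, 1 and 1 counts in KO2. In Maf1 KO libraries 0, 3 and 7 of the markers were at 0, against 8, 6 and 7 in WT libraries. Only 1 of the 8 passed the filter on low counts. *Pate4*, a secreted seminal protein and the most abundant of them, measured 0.723, 7.74 and 2.21 CPM in Maf1 KO libraries, against 0, 1.79 and 2.10 CPM in WT libraries. In KO1 it thus lay below KO3, WT2 and WT3, whereas it made up most of the sum of KO2. The sum of KO1 came mainly from *Svs4*, *Svs5* and *Svs2* (103, 97 and 82 counts). In KO3 and the WT libraries these had at most 1 count. The part of smooth muscle and of these organs in the levels of *Ptgs2*, *Akr1b7*, *Slco2a1*, *Hpgd*, *Ptges* and *Pla2g4a* was not tested.

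**Figure D2:**
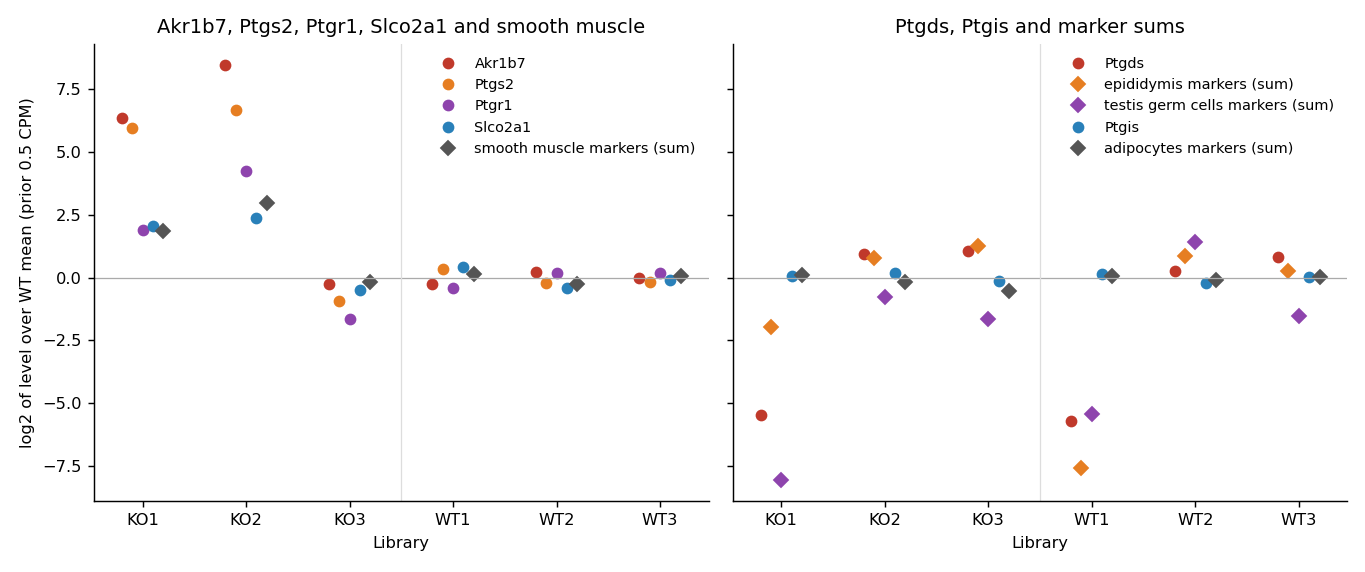
Level of each gene or marker sum in every library as log2 over its WT mean, with a prior of 0.5 CPM; circles are genes, diamonds are sums over a marker list, and Maf1 KO libraries stand left of WT libraries. On the left, *Akr1b7*, *Ptgs2*, *Ptgr1*, *Slco2a1* and the smooth muscle sum were above 0 in KO1 and KO2. On the right, *Ptgds* and the epididymis and testis sums were lowest in KO1 and WT1. *Ptgis* stayed between -0.2 and 0.17, and the adipocyte sum ran from -0.55 in KO3 to 0.12 in KO1.

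The other cell type lists varied less. Summed levels lay between 2849 and 4099 CPM in Maf1 KO and 2625 and 4443 CPM in WT libraries for the 8 fibroblast markers, led by *Dcn*, a collagen-binding proteoglycan. For the 7 mesothelium markers, led by *Upk3b*, they lay between 273 and 361 CPM in Maf1 KO and 268 and 362 CPM in WT libraries. For the 7 endothelium markers, led by the junction protein gene *Pecam1*, the sums ran between 738 and 880.0 CPM in Maf1 KO and 674 and 1291 CPM in WT libraries. The 6 macrophage markers, led by the mannose receptor gene *Mrc1*, summed to between 641 and 792 CPM in Maf1 KO and between 646 and 928 CPM in WT libraries. The 6 mast cell markers, led by *Kit*, summed to 101, 97.3 and 56.1 CPM in Maf1 KO libraries, against 97.9, 54.1 and 49.9 CPM in WT libraries. In none of these lists did the sums of KO1 and KO2 both lie above those of the other 4 libraries, although 4 of the 6 mast cell markers did so singly. No marker of these lists, or of the adipocyte list, was at 0 in any library.

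The nearest profiles of *Ptgs2* and *Akr1b7* were each other, with a root mean square difference of 0.709 in centred log2 CPM over the 6 libraries. After *Akr1b7*, the closest to *Ptgs2* were *Cnn1* (1.09), *Mybpc1* (1.10), *Actg2* (1.11) and *Ckm* (1.35). After *Ptgs2*, the closest to *Akr1b7* were *Ckm* (1.46), *Tnnc2* (1.52), *Cnn1* (1.53) and *Actg2* (1.56). *Cnn1* and *Actg2* encode calponin and an actin of smooth muscle, and both belong to the smooth muscle list. *Mybpc1*, *Ckm* and *Tnnc2* encode proteins of striated muscle. *Ckm*, the muscle creatine kinase, had 112, 369 and 14 counts in Maf1 KO libraries, against 0, 17 and 1 counts in WT libraries. These distances are a description over 6 libraries that differ in depth and in the marker sums given above.

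Compared per kilobase of exon, the order of the 10 genes by mean level differed between the genotypes. In KO3 alone, *Ptgds* at 165 CPM per kb and *Hpgd* at 52.8 were highest and *Ptgs2* at 0.801 was lowest, the same places as in the WT means. In Maf1 KO eWAT the mean levels were 2657 CPM per kb for *Akr1b7*, 119 for *Hpgd*, 107 for *Ptgds*, 94.2 for *Ptgs2*, 34.3 for *Slco2a1*, 31.0 for *Ptges*, 27.6 for *Ptgs1*, 17.2 for *Ptgis*, 6.33 for *Pla2g4a* and 4.80 for *Akr1b3*. In WT eWAT they were 79.1 CPM per kb for *Ptgds*, 59.5 for *Hpgd*, 17.8 for *Akr1b7*, 16.8 for *Ptgis*, 14.6 for *Ptgs1*, 11.6 for *Ptges*, 10.2 for *Slco2a1*, 4.74 for *Akr1b3*, 3.72 for *Pla2g4a* and 1.62 for *Ptgs2*. The WT ranges of *Akr1b7*, *Ptgis*, *Ptgs1*, *Ptges* and *Slco2a1* overlapped from each of these genes to the next, as did those of *Ptgds* and *Hpgd*. *Akr1b3*, *Pla2g4a* and *Ptgs2* did not overlap each other in WT libraries. In the Maf1 KO libraries the SD of *Akr1b7*, *Ptgds* and *Ptgs2* was close to or above the mean, so that their places there depend on the animal. The same holds for *Ptgds* in WT libraries, with an SD of 70.9 CPM per kb. In WT1 it stood at 1.21 CPM per kb, the lowest of the 10 genes.

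By the quasi-likelihood test of edgeR over all 16101 genes, 0 genes passed an adjusted p of 0.05 in either direction (0.0% of genes higher in Maf1 KO), *Maf1* included, and 0 of the 10 genes passed. Without adjustment 4 of the 10 were higher at a p under 0.05, namely *Akr1b7*, *Ptges*, *Ptgs2* and *Slco2a1*, beside 0.963% of all genes higher and 0.913% lower. The exact test of edgeR called 0.0124% of all genes higher after adjustment and 0 of the 10. Before adjustment 5 of the 10 were higher under 0.05, beside 1.24% of all genes higher and 0.727% lower. DESeq2 called 0.0497% of all genes higher and 0.0373% lower after adjustment, among them 1 of the 10, *Akr1b7*. Before adjustment 6 of the 10 were higher under 0.05, beside 1.66% of all genes higher and 1.2% lower. The log2 fold change was above 0 for all 10 genes, with a median of 0.96, and above 0 for 51.1% of all genes, with a median of 0.0078. KO1 and KO2 both lay above the other 4 libraries in 6 of the 10 genes and in 8.17% of all genes. Because the 10 genes were chosen on these differences, nothing is read from these shares.

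Of 32 further genes of the pathway, 27 passed the filter on low counts. This list too was chosen with earlier results of these data known, so nothing is read from the shares below. By the quasi-likelihood test of edgeR 0 of the 27 were called in either direction. At an unadjusted p under 0.05, 2 were higher (*Akr1b10* and *Cbr1*) and 0 lower, beside 0.963% of all genes higher and 0.913% lower. The exact test and DESeq2 also called 0 after adjustment, with 2 and 3 higher before it, beside 1.24% and 1.66% of all genes. Their median log2 fold change was -0.055 and 11 of the 27 lay above 0, beside a median of 0.0078 over all genes. The 6 tested genes of arachidonate release had a median of -0.085. *Pla2g16*, the main phospholipase A2 of adipocytes and the most abundant of them, measured 571, 356 and 266 CPM in Maf1 KO libraries, against 385, 465 and 488 CPM in WT libraries. KO1 was its highest library and KO3 its lowest, and the log2 fold change was -0.17 with a standard error of 0.32. *Pla2g12a*, a secreted phospholipase, stood at 0.16 on the same scale (standard error 0.19) and *Pla2g6*, a calcium-independent one, -0.055 (standard error 0.31).

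The 7 tested synthases had a median log2 fold change of 0.23. *Cbr1*, a carbonyl reductase that can convert prostaglandin E2 to F2α, measured 47.3, 60.2 and 40.3 CPM in Maf1 KO libraries, against 26.6, 37.1 and 36.1 CPM in WT libraries. All 3 Maf1 KO libraries lay above all WT libraries, as in 1 of the 27 genes and in 2.9% of all genes tested. The log2 fold change was 0.57 with a standard error of 0.22 and an adjusted p of 1.0 by edgeR. *Ptges3*, the cytosolic prostaglandin E synthase and Hsp90 co-chaperone p23, had 0.29 (standard error 0.31) and *Fam213b*, a prostamide and prostaglandin F synthase, 0.23 (standard error 0.39). Both relatives of *Akr1b7* had log2 fold changes above 0, with a median of 0.44, and that of *Akr1b10* was 0.76 with a standard error of 0.29 and an adjusted p of 1.0 by edgeR.

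Among the 7 tested receptors the median log2 fold change was -0.32 and 1 of them lay above 0. *Ptger3*, the receptor through which prostaglandin E2 restrains lipolysis in adipocytes, measured 55.8, 16.6 and 19.5 CPM in Maf1 KO libraries, against 34.2, 27.1 and 42.1 CPM in WT libraries. KO1 was the highest library and KO2 and KO3 the lowest, so the log2 fold change, -0.17 (standard error 0.49), became -0.93 without KO1 and 0.13 without KO2. *Ptger4*, another prostaglandin E2 receptor, stood at -0.37 on the log2 scale (standard error 0.44) and *Ptgir*, the prostacyclin receptor, -0.32 (standard error 0.36). Without WT1, where both were highest, these stood at 0.21 for *Ptger4* and 0.066 for *Ptgir*.

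*Ptgr1*, a reductase that completes the inactivation begun by Hpgd, shared the pattern of *Ptgs2*. It had 181, 633 and 13 counts in Maf1 KO libraries, against 33, 78 and 59 counts in WT libraries, which are 16.3, 84.5 and 0.959 CPM in Maf1 KO and 2.86, 4.65 and 4.60 CPM in WT libraries. KO1 and KO2 were highest and KO3 was lowest of all. The log2 fold change of 3.06 had a standard error of 1.3 and an adjusted p of 1.0 by edgeR, and was -2.06 without KO1 and KO2. *Ptgr2*, its relative, had -0.021 (standard error 0.24). The 3 tested transport genes besides *Slco2a1* lay below 0. *Slco2b1*, an organic anion transporter, measured 121, 125 and 172 CPM in Maf1 KO libraries, against 300.4, 143 and 176 CPM in WT libraries. The groups overlapped and its log2 fold change was -0.56 (standard error 0.32), against -0.29 (standard error 0.20) for the exporter *Abcc4* and -0.17 (standard error 0.30) for *Slco3a1*.

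**Figure D3:**
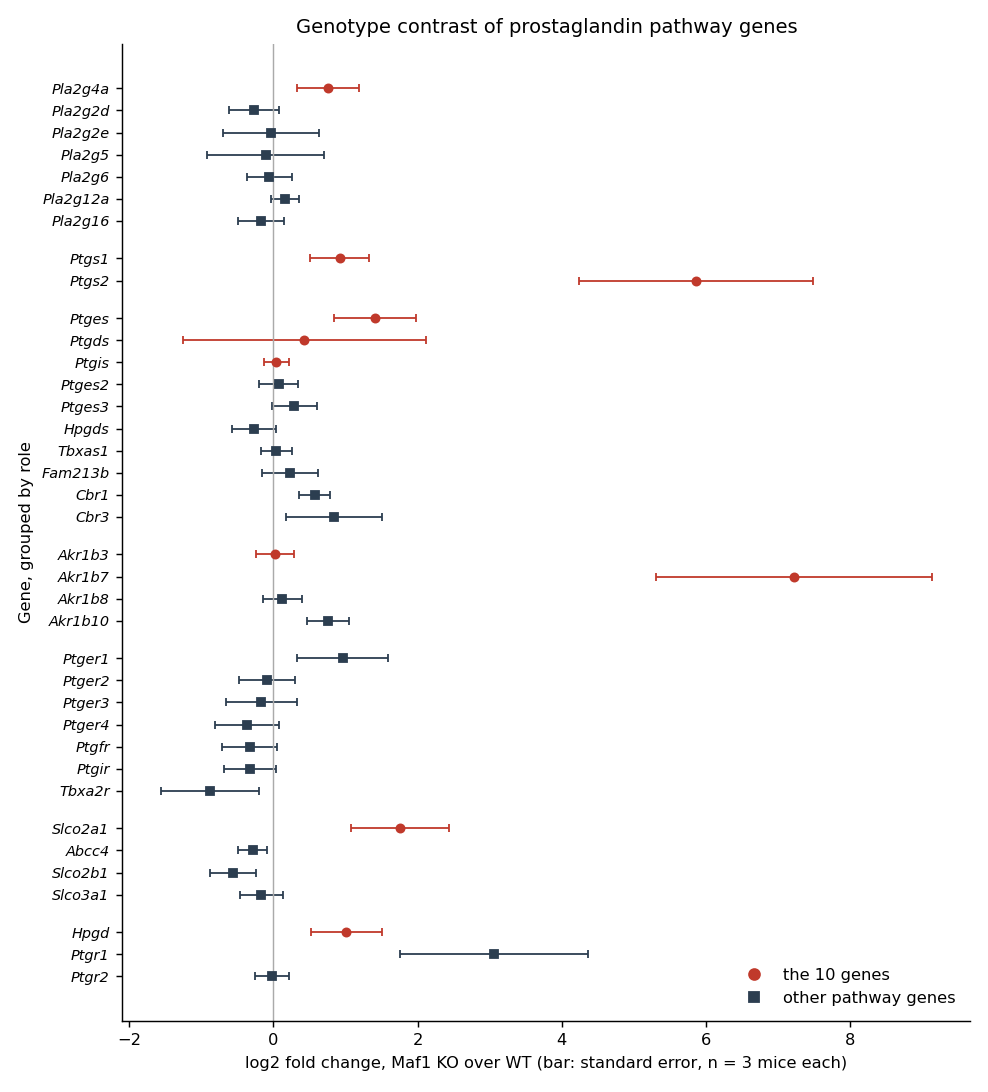
Log2 fold change, Maf1 KO over WT, with its standard error (3 mice per genotype) for the 10 genes (red circles) and the 27 other tested pathway genes (dark squares), grouped by role. *Akr1b7* at 7.22 and *Ptgs2* at 5.86 lie farthest from 0 and have long error bars, while most receptors lie just below 0.

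Leaving out single libraries kept the sign for 7 of the 10 genes. The exceptions were *Ptgds*, *Ptgis* and *Akr1b3*, whose log2 fold changes ran between -0.15 and 1.13, -0.053 and 0.11, and -0.27 and 0.16. Leaving out KO1 and KO2 together turned *Ptgs2*, *Akr1b7*, *Slco2a1*, *Hpgd*, *Pla2g4a*, *Ptgis* and *Akr1b3* below 0, whereas *Ptgs1* stood at 0.79, *Ptges* at 0.48 and *Ptgds* at 1.07.

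**Figure D4:**
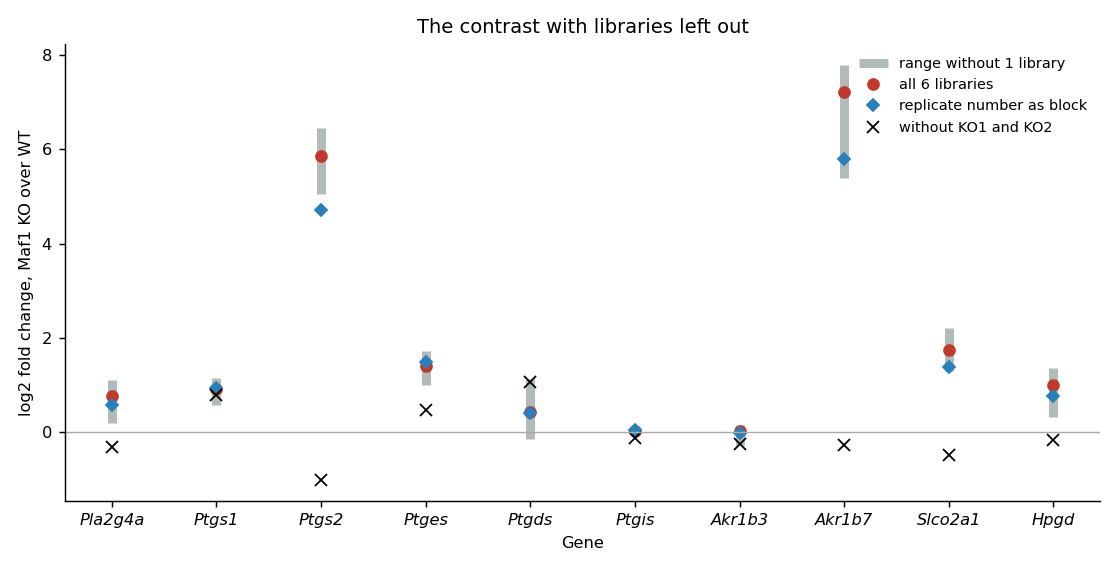
Log2 fold change, Maf1 KO over WT, of the 10 genes with all 6 libraries (red), over the settings that leave out 1 library (grey bar), when a block by replicate number was fitted (blue) and without KO1 and KO2 (cross). The crosses of *Ptgs2* at -1.01 and *Akr1b7* at -0.27 lie below 0, far from the values with all libraries.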

How the data were processed

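RNA of eWAT from 3 Maf1 KO and 3 WT mice was sequenced after ribosomal RNA depletion with a strand-keeping kit. The expected count values, whole for every gene, were made by the authors, who aligned reads to mm9 with GSNAP and counted uniquely mapped reads per Ensembl gene with HTSeq, tools that the submitters' processing notes name. Its annotation release and strand option are not given in the sources used here. In the deposited table every column closes with a normalization factor, which is no gene and was dropped. The 6 columns of normalized counts and the authors' own edgeR columns (fold change, abundance, p and FDR) were not used.

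Genes were filtered with filterByExpr, scaled by TMM factors and fitted in edgeR 4.0.16 (R 4.3.3), whose quasi-likelihood test was used with Benjamini-Hochberg adjustment over all 16101 genes kept and a threshold of 0.05. The tests were checked on simulated data. CPM use TMM-scaled library sizes, profile distances a prior of 0.5 CPM, and errors of levels are SD over mice. Totals lay between 7207476 and 15971900 counts per library. Levels per kilobase and coordinates use GENCODE gene models of mm9, in which 28339 of 28529 gene IDs matched. Promoters come from RefSeq (GRCm38.p6) and were placed in mm9 by exact match. Tables and plots were made with Python 3.11.15, pandas 2.3.3, numpy 2.4.6 and matplotlib 3.10.9.

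The 10 genes, the pathway list and the marker lists were chosen with earlier results of these data known. The text names all 10 genes, in each role group of the pathway list the 3 tested genes with the highest mean CPM and any with an unadjusted p under 0.05, the 5 nearest profiles of *Ptgs2*, *Akr1b7* and *Ptgds*, and the most abundant gene of each marker list. The alternatives included the exact test of edgeR, the Wald test of DESeq2 1.42.0, DESeq2 size factors, library size alone, no filter, the replicate number as a block, and leaving out libraries singly or by number. Leaving out KO1 with KO2 was added after the data were seen. The replicate numbers were taken to pair a Maf1 KO with a WT library if every pair's residuals correlated above 0.1; the correlations were 0.666, 0.327 and 0.327, although KO3 correlated more with WT2 (0.446). The mice are separate animals and nothing in the labels ties the numbers to a shared batch. The main fit therefore held no term for the replicate number, which was a block only among the alternatives.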

Additional observations from a re-analysis of the deposited data

How the results depend on the processing

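No gene was called higher or lower by the quasi-likelihood test of edgeR with other size factors, with library size alone, without the filter, with the replicate block, or with libraries left out, where the counts ranged from 0 to 0. DESeq2 called 8 genes higher and 6 lower, and the exact test of edgeR called 2 higher and 2 lower. With the replicate number as a block, 0 genes were called higher and 0 lower, the block changed no other call, and the log2 fold changes of *Akr1b7*, *Ptgs2* and *Slco2a1* were 5.79, 4.72 and 1.39. Among the 27 other pathway genes 0 were called in every setting. Of 390 values recomputed for named genes, 369 moved by less than 1 SD between replicates and 21 by more. In log2 units that SD was 3.69 for *Ptgds*, 3.23 for *Akr1b7*, 2.96 for *Ptgs2* and 2.10 for *Ptgr1*. For these genes it is a wide measure: *Ptgr1* went from 3.06 to 1.10 without KO2 and stayed within it. The count of 369 therefore does not show that their values are stable. Most of those 21 came from leaving out KO1 and KO2 together, where *Ptgs2* stood at -1.01, *Ptgr1* at -2.06 and *Akr1b7* at -0.27; that setting has 1 Maf1 KO library. KO2 held the fewest counts, 7207476, and *Ptgs2* in KO3 rests on 45.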
